A study of Mus musculus with 7 samples.

Results

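The miR-23, miR-27 and miR-24 hairpins lie side by side in 2 paralogous clusters of the mouse genome, called here the 23a cluster (miR-23a, miR-27a and miR-24-2) and the 23b cluster (miR-23b, miR-27b and miR-24-1). The results below describe 10 of the 1966 mature miRNAs in the deposited counts. They were chosen by name: 4 come from the 23a cluster (mmu-miR-23a-3p, mmu-miR-27a-3p, mmu-miR-27a-5p and mmu-miR-24-2-5p), 5 from the 23b cluster (mmu-miR-23b-3p, mmu-miR-23b-5p, mmu-miR-27b-3p, mmu-miR-27b-5p and mmu-miR-24-1-5p), and mmu-miR-24-3p comes from both. The choice holds no threshold on a measured value, but it was made with the levels of these miRNAs in the WT and ALAS12-KO libraries already known. The levels are therefore a description, and the tests beside them do not support the choice.

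Small RNAs were sequenced from liver hepatocytes of mice, in 3 libraries of genotype WT and 4 libraries of genotype ALAS12-KO. ALAS is 5-aminolevulinate synthase, the first enzyme of heme synthesis, and the study asked how it bears on small RNAs. All 7 libraries, WT included, carry the treatment TMX, an abbreviation left unexplained. Neither the age of the mice nor the way the knockout was made is stated in the labels. Nothing there says that replicates come from separate animals, so a p-value reflects the scatter of these libraries, some of which may be technical. The libraries held 7719180 to 21962191 miRNA reads.

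Both clusters are transcribed as a primary RNA that carries all 3 hairpins, from which Drosha and Dicer release the mature arms. One arm of each hairpin, here the 3p arm, is kept by Argonaute and guides silencing through its seed, while the 5p arm is mostly lost. The 23a cluster is best known from blood cells, muscle and endothelium. The 23b cluster is known from endothelium and liver, where miR-27b has been studied as a repressor of lipid metabolism genes and the cluster as a repressor of Smad proteins of TGF-beta signalling.

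The mature sequences show why the paralogs are hard to tell apart in counts, and 9 of the 10 members, all but miR-23b-3p, had one in the RefSeq table on GRCm38.p6. They are given 5′ to 3′ with the seed, bases 2 to 8, in capitals, for the 3p arms that carry nearly all the reads.
miR-23a-3p: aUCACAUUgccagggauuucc
miR-27a-3p: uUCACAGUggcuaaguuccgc
miR-27b-3p: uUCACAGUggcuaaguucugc
miR-24-3p: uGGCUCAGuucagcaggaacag
miR-27a-3p and miR-27b-3p shared the seed UCACAGU and differed at 1 of 21 bases, C19U, counted from 1 at the 5′ end with miR-27a-3p first. No other of the 1679 mature names in that table had this seed. How reads matching several miRNAs were counted is not given in the sources used here, so the split between miR-27a-3p and miR-27b-3p rests on 1 base near the 3′ end. The sequences of miR-23a-3p and miR-23b-3p were not compared. The 5p arms were less alike. miR-27a-5p and miR-27b-5p differed at 8 of 22 bases, and miR-24-1-5p and miR-24-2-5p at 5 of the 22 bases compared.

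miR-24-3p cannot be assigned to either cluster, because both miR-24 hairpins hold the same 22 bases, in capitals here within the whole hairpins.
Mir24-1: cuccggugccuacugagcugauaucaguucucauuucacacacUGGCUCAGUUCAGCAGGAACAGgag
Mir24-2: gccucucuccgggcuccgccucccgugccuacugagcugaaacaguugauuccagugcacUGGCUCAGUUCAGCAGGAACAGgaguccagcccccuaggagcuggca
For this reason miR-24-3p was left out of both cluster sums, and the miR-24 position of each cluster was read from its own 5p arm. That arm was rare.

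On GRCm38, in GENCODE M21, the 23a cluster spans 404 bases of the plus strand of chromosome 8, with Mir23a at 84208518 to 84208592, Mir27a at 84208672 to 84208758 and Mir24-2 at 84208815 to 84208921. Mir23a and Mir27a overlap no other annotated gene, and the end of Mir24-2 overlaps the exon of the noncoding Gm26532. The 23b cluster spans 792 bases of the plus strand of chromosome 13, with Mir23b at 63300484 to 63300557, Mir27b at 63300712 to 63300784 and Mir24-1 at 63301208 to 63301275. It lies within 2010111I01Rik, named Aopep in RefSeq, an aminopeptidase gene on the same strand, and opposite Fancc. Mir23b is intronic there, and Mir27b and Mir24-1 overlap exons of noncoding or nonsense-mediated-decay transcripts of that gene. Mir24-1 and Mir24-2 each overlap a Mir3074 hairpin on the opposite strand.

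Most reads that could be given to 1 cluster came from the 23b cluster, and most of those were miR-27b-3p. Levels are counts per 1000000 (CPM) of the summed miRNA reads of a library, and they were not corrected for how well each RNA ligates, so an order between miRNAs is an order of reads. Over the 7 libraries miR-27b-3p ranked 23 by mean CPM among all 1966 miRNAs, miR-24-3p 33, miR-23b-3p 47, miR-23a-3p 48 and miR-27a-3p 59. These 5 members took 99.9% of the reads of the 10 in every library. The share of all miRNA reads that the 10 took together was 0.980% ± 0.0697 (SD, n = 3) for WT, against 0.852% ± 0.113 (SD, n = 4) for ALAS12-KO. miR-27b-3p and miR-24-3p held the first and second place in every library. The order of the other 3 varied between libraries, and miR-23a-3p and miR-23b-3p overlapped in level.

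**Figure D1:**
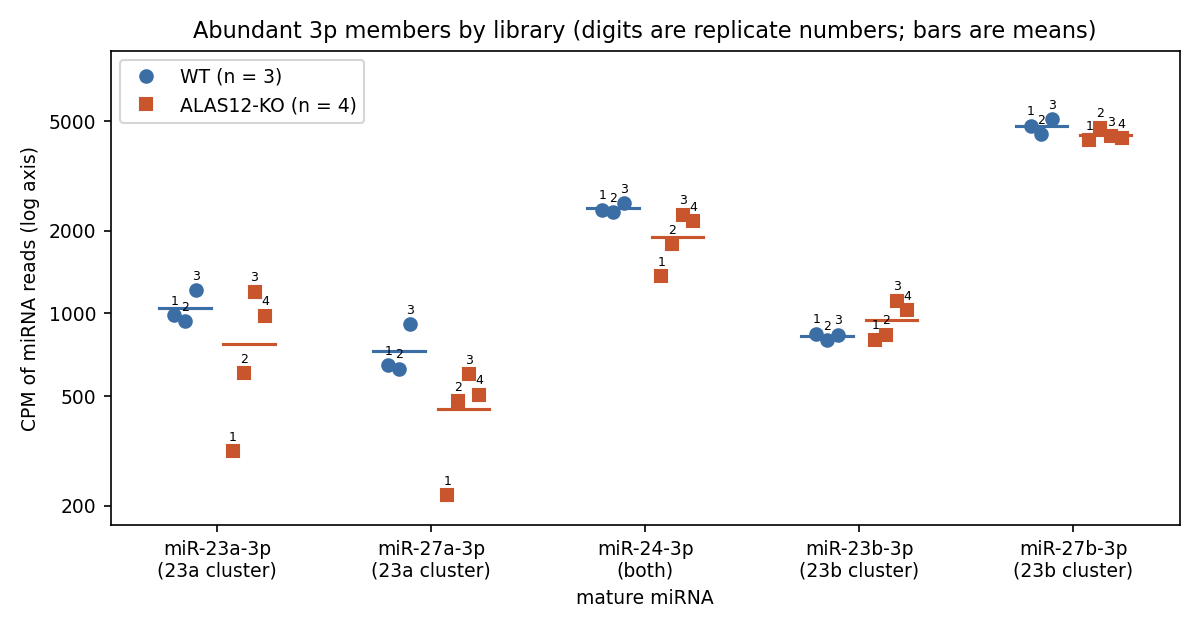
CPM of miRNA reads on a log axis for the 5 abundant 3p members, with 1 point per library, its replicate number above it and a bar at the group mean. miR-23a-3p and miR-27a-3p spread widely in ALAS12-KO, down to 316 and 218 CPM in replicate 1, while miR-27b-3p stayed between 4263 and 5070.0 CPM in all 7 libraries.

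The 23a cluster was lower on average in ALAS12-KO, with a wide spread, and neither of its abundant members passed the threshold. miR-23a-3p stood at 983, 938 and 1214 CPM in WT replicates 1 to 3 and at 316, 607, 1198 and 982 CPM in ALAS12-KO replicates 1 to 4. Replicates 1 and 2 of ALAS12-KO lay below all WT libraries, and replicates 3 and 4 lay within the WT range. miR-27a-3p stood at 649, 629 and 914 CPM in WT and at 218, 481, 601 and 506 CPM in ALAS12-KO. Here all ALAS12-KO libraries lay below all WT libraries, the nearest pair being 601 and 629 CPM. Summed over its 4 members, the 23a cluster averaged 1778 ± 307 CPM (SD, n = 3) over the WT libraries, against 1229 ± 547 CPM (SD, n = 4) for ALAS12-KO.

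In the fit over all 450 miRNAs that passed the filter on low counts, the log2 fold change (ALAS12-KO against WT, TMM factors) was -0.31 ± 0.30 (SE) for miR-23a-3p, with an adjusted p of 0.568 in edgeR's quasi-likelihood test with Benjamini-Hochberg adjustment. For miR-27a-3p it was -0.55 ± 0.25, with an edgeR adjusted p of 0.269. Without ALAS12-KO replicate 1 the log2 fold change was -0.11 ± 0.19 for miR-23a-3p and -0.38 ± 0.16 for miR-27a-3p (edgeR adjusted p = 0.188). Without ALAS12-KO replicate 3 it was -0.58 ± 0.31 for miR-23a-3p (edgeR adjusted p = 0.277).

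The 23b cluster stood at similar levels in both genotypes, with a small difference for miR-23b-3p that depends on the scaling. miR-27b-3p stood at 4806, 4474 and 5070.0 CPM in WT and at 4263, 4735, 4408 and 4341 CPM in ALAS12-KO. The genotypes overlapped. Its log2 fold change was 0.09 ± 0.14 (edgeR adjusted p = 0.752) and changed sign with library totals, to -0.11. miR-23b-3p stood at 844, 799.6 and 836 CPM in WT and at 804, 838, 1113 and 1029.6 CPM in ALAS12-KO. On this scale replicates 3 and 4 of ALAS12-KO were the highest and the other ALAS12-KO libraries lay within the WT range. With TMM factors, which range from 0.806 in ALAS12-KO replicate 1 to 1.13 in WT replicate 3, all ALAS12-KO libraries lay above all WT libraries for miR-23b-3p. Summed over its 5 members, the 23b cluster averaged 5615 ± 319 CPM (SD, n = 3) over the WT libraries, against 5388 ± 229 CPM (SD, n = 4) for ALAS12-KO.

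miR-23b-3p was the 1 member whose call depended on the tool. Its log2 fold change was 0.36 ± 0.11, with an unadjusted p of 0.0112 and an adjusted p of 0.195 in edgeR. DESeq2 gave 0.35 ± 0.08 with an adjusted p of 0.00167, and library totals in edgeR gave 0.20 ± 0.13 with an adjusted p of 0.455. Over its alternatives the adjusted p ran from 0.00167 to 0.503, the highest in edgeR without the filter on low counts. The sum of miR-23a-3p and miR-23b-3p had an edgeR adjusted p of 0.990. In place of TMM factors, library totals moved the median over all 450 miRNAs from 0.06 to -0.12 (log2).

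miR-24-3p, a product of both clusters, had a lower CPM in every ALAS12-KO library than in any WT library and did not pass the threshold. It stood at 2385, 2334 and 2513 CPM in WT and at 1366, 1781, 2284 and 2162 CPM in ALAS12-KO. Replicate 1 of ALAS12-KO was the lowest, and replicate 3 was only just below WT. Its log2 fold change was -0.18 ± 0.12, with an edgeR adjusted p of 0.395, and -0.34 ± 0.17 with library totals.

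Of the 10 members, 8 passed the filter on low counts and 0 of these were called by edgeR at an adjusted p under 0.05, against 0% of all 450 miRNAs. At an unadjusted p under 0.05 edgeR had 1 of 8, miR-23b-3p, against 18.7% of all tested miRNAs. DESeq2 called 1 of 8, the same member, against 4.89%. limma-voom called 0 of 8, against 0 of all 450. At an unadjusted p under 0.05 limma-voom had 1 of 8, against 89 of 450. In CPM of library totals the genotypes did not overlap for 2 of 8, both lower in ALAS12-KO, against 15.3% lower and 5.33% higher over all tested miRNAs. With TMM factors 2 did not overlap and were lower, against 9.33%, and 1 did not overlap and was higher, against 10.9%. The log2 fold changes of the 8 were split 4 and 4 around 0, with a median of 0.04 beside 0.06 for all tested miRNAs. The levels in both genotypes were already known when these members were chosen, so nothing is read from these counts.

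**Figure D2:**
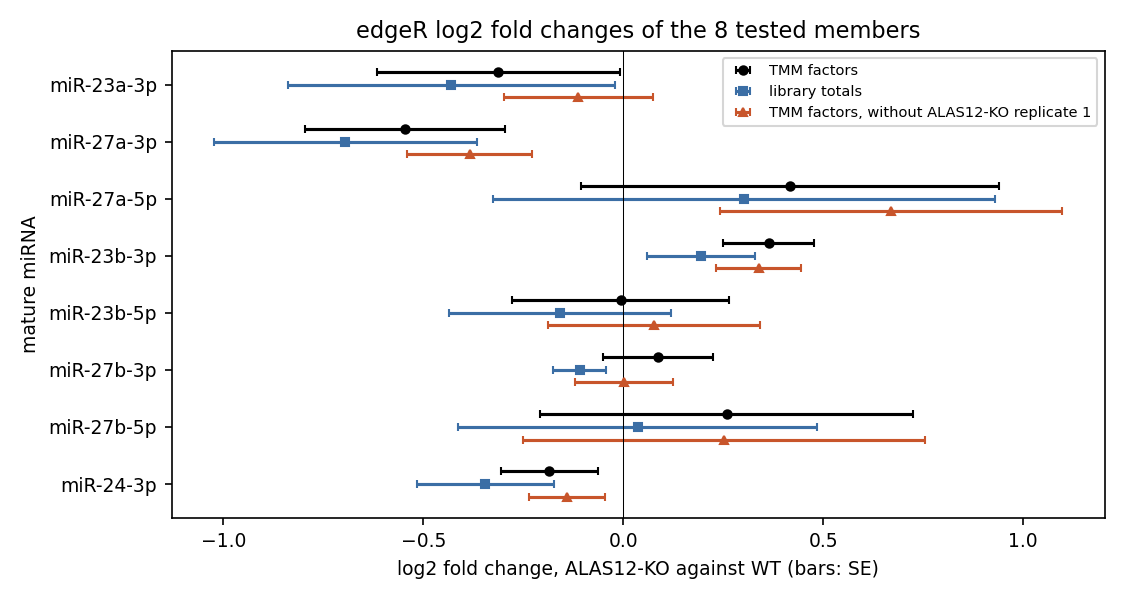
edgeR log2 fold changes of ALAS12-KO against WT for the 8 tested members, with SE bars, for TMM factors, library totals, and TMM factors without ALAS12-KO replicate 1. miR-27a-3p and miR-24-3p are negative in all 3 and miR-23b-3p is positive in all 3, while miR-27b-3p moves from 0.09 to -0.11 with library totals.

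Because paralogs may share reads, the miR-23 and miR-27 arms were also summed. miR-23a-3p and miR-23b-3p together averaged 1872 ± 161 CPM (SD, n = 3) over the WT libraries, against 1722 ± 539 CPM (SD, n = 4) for ALAS12-KO. For miR-27a-3p and miR-27b-3p together the means were 5514 ± 444 CPM (SD, n = 3), against 4888 ± 310 CPM (SD, n = 4). Entered in the edgeR fit as single counts with TMM factors, the miR-23 sum had a log2 fold change of 0.013 ± 0.16 (edgeR adjusted p = 0.990) and the miR-27 sum 0.0053 ± 0.13 (0.995). Both sums lay within 1 SE of 0 on that scale.

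The balance between the clusters does not depend on the library scaling, since it is a ratio of counts within a library. The 23b cluster took 77.6%, 77.1% and 73.5% of the reads of both clusters in WT and 90.5%, 83.7%, 75.4% and 78.3% in ALAS12-KO. ALAS12-KO replicates 1 and 2 were the highest of the 7, and replicates 3 and 4 lay near WT. The log2 ratio of the summed reads averaged 1.67 ± 0.17 (SD, n = 3) for WT, against 2.27 ± 0.72 (SD, n = 4) for ALAS12-KO, a difference of 0.60 that was 0.27 without ALAS12-KO replicate 1. No test was made on this sum over members.

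Position by position, the same tilt appeared at the miR-23 and miR-27 positions but did not pass a test. The log2 ratio of miR-23b-3p to miR-23a-3p was -0.22, -0.23 and -0.54 in WT and 1.35, 0.46, -0.11 and 0.07 in ALAS12-KO. miR-23b-3p was the more abundant paralog in 0 of 3 WT libraries and in 3 of 4 ALAS12-KO libraries, and the genotypes did not overlap. How often ratios of other miRNAs separate in this way was not counted. Among single miRNAs, in CPM of library totals, 15.3% of the 450 tested did not overlap and were lower in ALAS12-KO, and 5.33% higher. Members and tests were chosen with earlier results known, so the non-overlap of this log2 ratio is a description. The difference of the means was 0.77, with a two-sided exact permutation p of 0.0857 and 0.214 after Benjamini-Hochberg adjustment over the 3 paralog pairs. With 35 ways to split the libraries the smallest possible p is 0.0286. After adjustment over the 3 pairs, 1 pair alone at that p would not fall under 0.05. The test could therefore hardly pass a single pair, and no absence of a difference is read from it. Without ALAS12-KO replicate 1 the difference was 0.47.

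The log2 ratio of miR-27b-3p to miR-27a-3p was 2.89, 2.83 and 2.47 in WT and 4.29, 3.30, 2.88 and 3.10 in ALAS12-KO. Only ALAS12-KO replicate 3 lay within the WT range. The difference was 0.66, with an exact permutation p of 0.143 (adjusted 0.214), and 0.36 without ALAS12-KO replicate 1. For miR-24-1-5p against miR-24-2-5p, with 0 to 7 reads per library, the exact permutation p was 0.514 (adjusted 0.514) and the ratio is not interpretable at this depth.

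**Figure D3:**
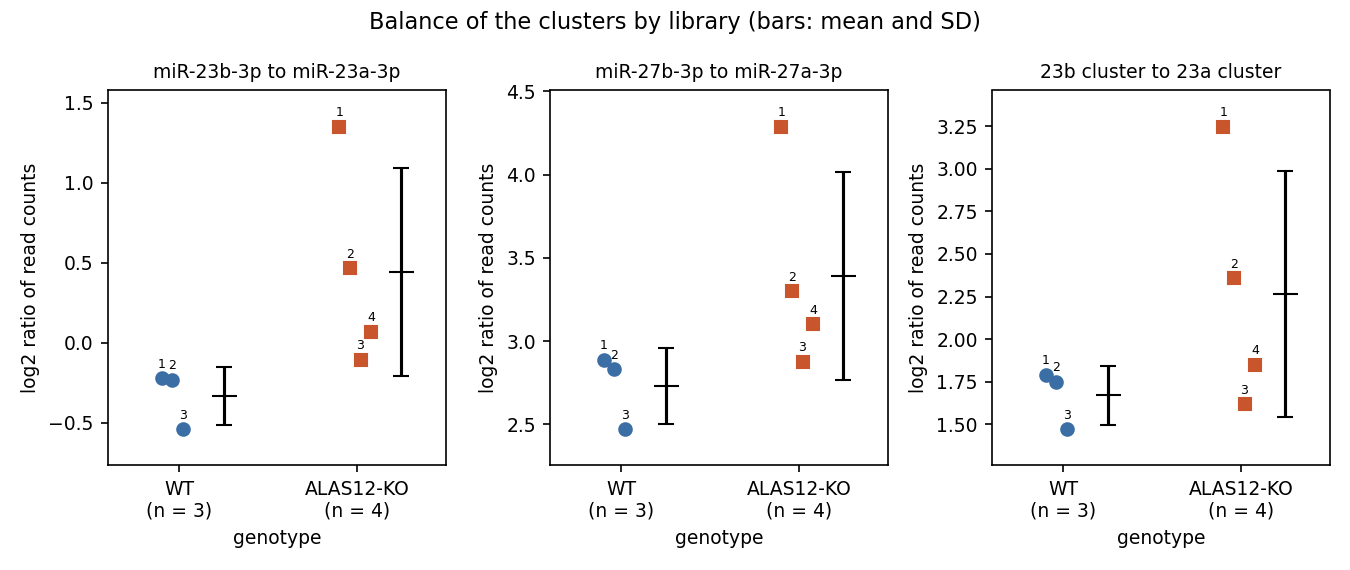
log2 ratios of read counts per library for miR-23b-3p to miR-23a-3p, miR-27b-3p to miR-27a-3p and the summed 23b to 23a cluster, with 1 point per library, its replicate number, and the group mean and SD beside the points. ALAS12-KO replicate 1 is the highest point in each panel, at 1.35, 4.29 and 3.25.

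Within each cluster, the hairpins that share a transcript were not read equally. In the 23a cluster miR-27a-3p was below miR-23a-3p in 7 of 7 libraries, at 0.660, 0.670 and 0.753 times its reads in WT and 0.692, 0.792, 0.501 and 0.515 times in ALAS12-KO. In the 23b cluster the order was the opposite. miR-27b-3p exceeded miR-23b-3p in 7 of 7 libraries, at 5.70, 5.59 and 6.06 times its reads in WT and 5.30, 5.65, 3.96 and 4.22 times in ALAS12-KO. In both clusters the ratio was lowest in ALAS12-KO replicates 3 and 4.

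The 5p arms were the rare strands of these hairpins. miR-23b-5p had 15 to 44 reads per library and averaged 2.00 ± 0.0581 CPM (SD, n = 3) over the WT libraries, against 1.80 ± 0.475 CPM (SD, n = 4) for ALAS12-KO. miR-27a-5p had 7 to 55 reads, with 1.61 ± 0.618 and 1.92 ± 1.33 CPM, and miR-27b-5p 31 to 56 reads, with 2.96 ± 1.01 and 3.02 ± 1.70 CPM. The genotypes overlapped for all 3, with edgeR adjusted p of 0.995, 0.671 and 0.787.

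As a share of the 3p arm, the 5p arm stood at 0.142% to 0.260% for miR-23b, 0.152% to 0.663% for miR-27a and 0.0436% to 0.117% for miR-27b. Of the miR-27 pair, miR-27a had the larger share of its 5p arm in 7 of 7 libraries. The log2 ratio of 5p to 3p differed between the genotypes by -0.38 ± 0.21 (SE) for miR-23b, 0.77 ± 0.44 for miR-27a and 0.06 ± 0.38 for miR-27b. The miR-27a value was 0.49 without ALAS12-KO replicate 4 and 1.10 without WT replicate 1. limma over 130 hairpins called 0% of them, with 7 at an unadjusted p under 0.05, and gave these 3 adjusted p of 0.742, 0.742 and 0.961.

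The miR-24 5p arms were near the limit of these libraries. miR-24-2-5p had 1 to 7 reads per library and 25 in all, and miR-24-1-5p had 0 to 4 reads and 13 in all. In WT replicate 2 the count of miR-24-1-5p was 0 of 21962191 reads, which allows up to 0.137 CPM, or 3 counts, by counting error alone and without regard to PCR copies. Neither passed the filter on low counts.

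Hepatocytes prepared by collagenase perfusion can hold other liver cells, and the summed markers of 5 such cell types were, like the 23a cluster, lowest in ALAS12-KO replicate 1. The hepatocyte markers were abundant throughout, led by miR-122-5p, and the 6 of them summed to 633294 to 661287 CPM in WT and 605482 to 692663 CPM in ALAS12-KO, highest in replicate 1. Most of that sum was miR-122-5p, at 615065 CPM in ALAS12-KO replicate 1. miR-192-5p, miR-194-5p and miR-101b-3p were also highest there. miR-148a-3p was highest in ALAS12-KO replicate 2, at 26796 CPM, and miR-802-5p in ALAS12-KO replicate 3, at 268 CPM. The 2 endothelial markers, both arms of miR-126a, summed to 35562 to 52472 CPM in WT and to 10959 CPM in ALAS12-KO replicate 1, 25490.2 CPM in replicate 2, 36485 CPM in replicate 3 and 29636 CPM in replicate 4. The 4 leukocyte markers summed to 5708 to 7542 CPM in WT and 2231 to 7196 CPM in ALAS12-KO, and the 4 mesenchymal markers to 3691 to 6132 CPM and 1380.2 to 5071 CPM. The 3 cholangiocyte markers summed to 114 to 205 CPM and 33.2 to 73.3 CPM, and the 2 red cell markers to 16.2 to 21.6 CPM and 6.83 to 16.4 CPM. The lists did not follow the 23a cluster alike: the cholangiocyte sum lay below all WT libraries in every ALAS12-KO library, while the 23a cluster of ALAS12-KO replicate 3 lay within the WT range. None of the markers was at 0 in any library, and edgeR called 0 of the 21 markers, against 0 of all 450 miRNAs. The cholangiocyte miR-200a-3p, miR-200b-3p and miR-429-3p had log2 fold changes of -1.31, -1.30 and -1.27. Their edgeR adjusted p were 0.113, 0.115 and 0.113, where the smallest of the whole fit was 0.103. In such mixed samples fewer cells of a type and less RNA per cell cannot be told apart. The part of these cells in the level of the 23a cluster was not tested.

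The profile of each member over the 7 libraries was compared with those of 217 other miRNAs of at least 10 CPM, as the root mean square difference of log2 TMM-scaled CPM after centring each on its mean. The nearest to miR-27a-3p was the endothelial miR-126a-3p, at 0.0756, followed by miR-10a-3p at 0.0829 and miR-139-5p at 0.116, where the median over the 217 was 0.588. The nearest to miR-23a-3p were miR-10a-5p at 0.0864, miR-326-3p at 0.0986 and miR-503-5p at 0.128. For miR-23a-3p, miR-126a-5p was at rank 6 and miR-126a-3p at rank 22. Of the 4 leukocyte markers, miR-142a-3p was at rank 5 for miR-23a-3p, miR-223-3p at rank 13, miR-142a-5p at rank 26 and miR-150-5p at rank 105, the last at 0.589, near the median of 0.601. For miR-27a-3p these 4 were at ranks 27, 17, 14 and 40. The mesenchymal miR-199a-5p, miR-143-3p and miR-145a-5p were at ranks 19, 21 and 30 for miR-23a-3p and at ranks 23, 21 and 6 for miR-27a-3p. miR-214-3p, too low to be ranked, lay 0.437 and 0.639 away. The cholangiocyte miR-429-3p, miR-200b-3p and miR-200a-3p were at ranks 53, 87 and 114 for miR-23a-3p and at ranks 34, 41 and 47 for miR-27a-3p. miR-122-5p, the hepatocyte miRNA, was at rank 143 of 217 for miR-27a-3p and at rank 170 for miR-23a-3p.

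The 23b cluster had other neighbours. The nearest to miR-27b-3p were miR-425-3p at 0.0631, miR-872-3p at 0.0653 and miR-29a-3p at 0.0681, with miR-122-5p at rank 21 and miR-126a-3p at rank 175. The other hepatocyte markers were farther from miR-27b-3p, with miR-148a-3p at rank 51, miR-194-5p at 54, miR-101b-3p at 59 and miR-192-5p at 70. miR-802-5p was at rank 115, at 0.313, beyond the median of 0.260. The nearest to miR-23b-3p were miR-26a-5p at 0.0675, miR-340-5p at 0.0699 and miR-106b-5p at 0.0778, with miR-122-5p at rank 82 and miR-126a-3p at rank 184. For miR-23b-3p the other hepatocyte markers ran from rank 46 (miR-148a-3p) to rank 130 (miR-802-5p). The nearest to miR-24-3p were let-7i-5p at 0.0445, miR-18a-5p at 0.0472 and let-7i-3p at 0.0823, with miR-122-5p at rank 98 and miR-126a-3p at rank 125. For miR-24-3p the other hepatocyte markers ran from rank 106 (miR-148a-3p) to rank 144 (miR-192-5p). Between the members, miR-23a-3p and miR-27a-3p lay 0.235 apart and miR-23b-3p and miR-27b-3p 0.220 apart, while miR-23a-3p lay 0.580 from miR-23b-3p and miR-27a-3p 0.536 from miR-27b-3p. Over all 7 libraries, members of 1 cluster were therefore nearer to each other than to their paralogs. ALAS12-KO replicate 1 weighs heavily in these distances. There, after centring, miR-23a-3p and miR-27a-3p stood at -1.07 and -0.97, and miR-23b-3p and miR-27b-3p at 0.17 and 0.21. The distances were not recomputed without that library, so whether the order holds in the others is not shown. Within the 23b cluster, though, 0.220 was not far below the median over the 217, which was 0.267 for miR-23b-3p and 0.260 for miR-27b-3p. miR-194-5p, only at rank 66 for miR-23b-3p, lay as near to it, at 0.219. miR-24-3p, a product of both clusters, lay 0.255 from miR-27b-3p. From the lowest to the highest library, miR-23a-3p spanned 1.47 and miR-27a-3p 1.58 on the log2 scale, against 0.44 for each of miR-24-3p, miR-27b-3p and miR-23b-3p. These distances describe 7 libraries that also differ in depth and in the summed levels of the cell type markers.

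**Figure D4:**
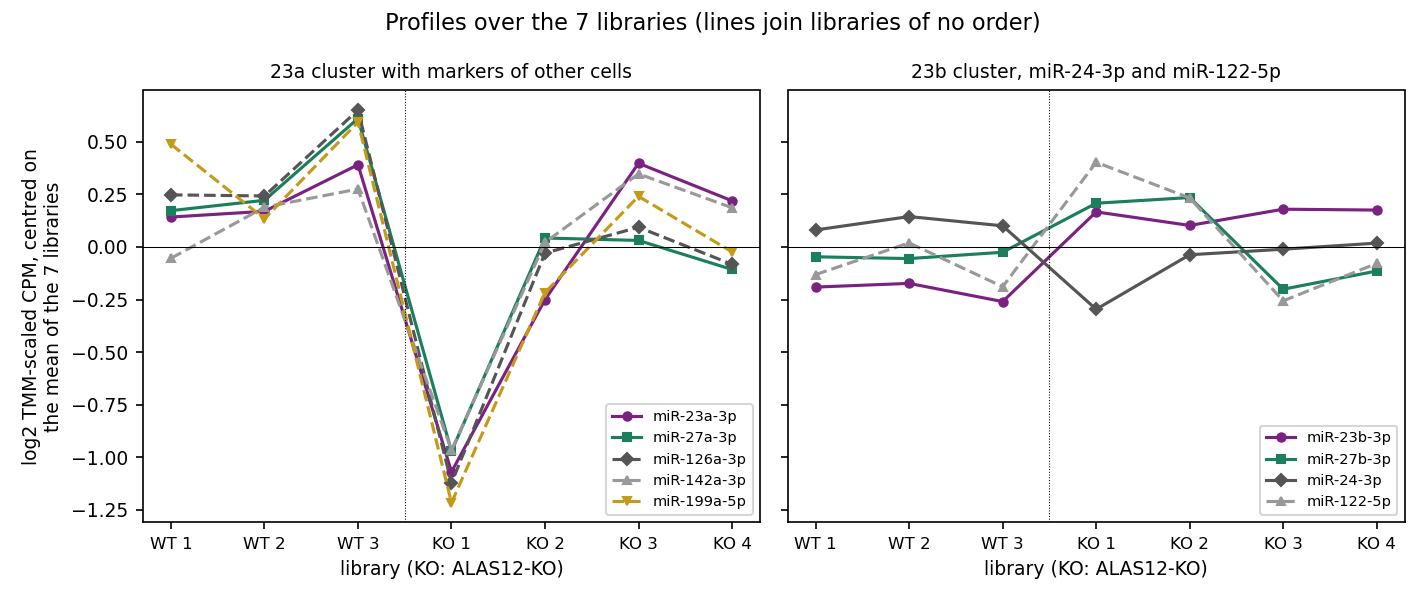
log2 TMM-scaled CPM of each library, centred on the mean of the 7 libraries; the left panel shows miR-23a-3p and miR-27a-3p with 1 marker each of endothelial, leukocyte and mesenchymal cells, the right panel miR-23b-3p, miR-27b-3p, miR-24-3p and the hepatocyte miR-122-5p. In ALAS12-KO replicate 1 miR-23a-3p and miR-27a-3p stand at -1.07 and -0.97, and miR-23b-3p and miR-27b-3p at 0.17 and 0.21. Markers of 1 list do not all follow the one shown. The mesenchymal miR-214-3p, not shown, lay 0.437 from miR-23a-3p and 0.639 from miR-27a-3p, against 0.196 and 0.202 for miR-199a-5p.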

How the data were processed

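Each library has 1 deposited table of raw read counts per mature miRNA, as seen from its whole numbers; the authors' steps before it are known only in part. The submitters' processing notes name cutadapt, limma, mm10 and hg38 without their roles. What aligner, counter, miRNA annotation and strand setting were used is not given in the sources used here. Left out were 5 summary entries, among them reads outside any miRNA (50.9% to 73.7% of those counted).

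Genotypes were compared in edgeR 4.0.16 (R 4.3.3; quasi-likelihood, robust, TMM factors; filterByExpr, minimum count 10; Benjamini-Hochberg threshold 0.05), the arms in limma 3.58.1 and paralog ratios, with 0.5 added to each count, by exact permutation in Python 3.11.15 with scipy 1.17.1. DESeq2 1.42.0, other scalings and filters, a replicate block, summed paralogs and leaving out each library were alternatives. Fits were tested on simulated data. Members, lists and tests were chosen with earlier results of these data known. Named were all members, miR-23a-5p, the 3 nearest profiles of each abundant member and the cell type markers. Spike-in RNAs were not used here, so levels are relative to all miRNA reads.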

Additional observations from a re-analysis of the deposited data

Results flagged for a closer look

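For miR-27b-5p, ALAS12-KO replicate 2 stood apart from the other libraries of its genotype, at 5.55 CPM (56 reads) against 2.43, 2.22 and 1.89 CPM. It lay 0.853 of the group's range away from the next library, more than Dixon's critical ratio for 4 libraries. Of 13 measures checked, 1 stood apart in this way, where chance gives about 0.65 (1 in 20). In this library the 3p arm, miR-27b-3p, was also the highest of ALAS12-KO, at 4735 CPM, without passing that ratio.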

How the results depend on the processing

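The count of miRNAs called by edgeR, 0, became 2 with library totals, 22 with DESeq2 and 13 without the filter, and ran from 0 to 1 when each library was left out. The count of members called became 1 with DESeq2 (miR-23b-3p) and stayed 0 in the other 15 alternatives. The labels do not say that same-numbered libraries belong together. The deviations of same-numbered libraries correlated at -0.028, -0.47 and 0.0066, and those of other pairs ran from -0.36 to 0.53. With so few libraries these values cannot show whether same-numbered libraries share a batch. The replicate block, in which ALAS12-KO replicate 4 has no partner, called 0 miRNAs. With it, the log2 fold change became -0.54 for miR-23a-3p, -0.12 for miR-27a-5p and 0.023 for miR-23b-5p, and the cluster balance 0.74. Among the members' log2 fold changes, the sign turned under the block for miR-27a-5p and miR-23b-5p. For miR-27b-3p it turned with library totals (-0.11) and with a mean CPM of at least 10 (-0.061). When paralogs were summed, 0.013 for miR-23 and 0.0053 for miR-27 were values of the sums, not of miR-23a-3p or miR-27a-3p. When each library was left out, miR-23a-3p ran from -0.58 to -0.11, miR-27a-3p from -0.70 to -0.38, miR-27a-5p from 0.0074 to 0.73 and the arm balance of miR-27a from 0.49 to 1.10, while miR-23b-5p ran from -0.17 to 0.077, miR-27b-3p from -0.013 to 0.089, miR-27b-5p from -0.27 to 0.45, the arm balance of miR-27b from -0.25 to 0.26 and the ratio of miR-24-1-5p to miR-24-2-5p from -0.029 to 2.00; the cause was not tested. The cluster balance ran from 0.27 to 0.81, miR-23b-3p to miR-23a-3p from 0.47 to 0.96 and miR-27b-3p to miR-27a-3p from 0.36 to 0.83, each lowest without ALAS12-KO replicate 1. With nothing added to the counts the miR-24 pair gave no value, since 1 count is 0. Depth limits the 5p arms, with at most 56 reads per library.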

Other observations

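miR-23a-5p, the other arm of the miR-23a hairpin and not among the members, had 0 to 3 reads per library and 6 in all, beside 4157 to 20605 reads of miR-23a-3p. miR-3074-5p, from the hairpins opposite Mir24-1 and Mir24-2, had 2 to 6 reads per library and 25 in all. Whether the counting used strand is not given, so these reads cannot be separated from the miR-24 hairpins.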
